A study of Mus musculus with 13 samples.

Results

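Endothelial cells, which line every blood vessel, carry a set of surface and secreted proteins that are commonly used to recognise them. Expression of 10 genes for such proteins was examined in mouse retina: Cdh5, Pecam1, Icam2, Esam, Cd34, Podxl, Emcn, Cd93, Prnd and Egfl7. Members were chosen by name, and every non-control probe of the array for these genes was taken, each matched to its gene through the transcript identifier in the array files. This gave 13 probes of 10 genes, out of 41174 different non-control probes and 16786 genes named by a symbol on the array. All 13 passed the filter on dim probes, which 39354 probes passed in all. Cdh5, Cd93 and Podxl have 2 probes each, numbered here with the brighter one as probe 1, and the others have 1.

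The samples are total RNA of retinal tip cells (n = 6), of stalk cells (n = 4) and of retina without its vessels, the control (n = 3). A sprouting vessel is led by tip cells, with stalk cells forming its trunk, and the study searched for genes that set tip cells apart. Every sample was labelled with Cy5 and hybridised against Universal Mouse Reference RNA in Cy3, a commercial pool shared by all groups, with no dye swap. The labels name no strain, genotype, age, animal or way of collecting the cells, so p-values measure the spread between these samples, part of which may be technical.

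The 10 proteins work at the surface of the endothelial cell or just outside it. Cdh5 (VE-cadherin) holds neighbouring endothelial cells together at adherens junctions, with Pecam1, Esam and Icam2, adhesion molecules of the immunoglobulin superfamily, nearby. Cd34, Podxl and Emcn are sialomucins, heavily glycosylated and negatively charged proteins that face the vessel lumen. Cd93 is a lectin-like receptor that binds the matrix protein Mmrn2, Prnd (doppel) is a lipid-anchored relative of the prion protein, and Egfl7 is secreted into the matrix around the vessel. In the retina, antibodies to several of them are used to stain the whole vessel network.

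Promoter sequence is shown for members that were higher in both vessel groups than in nonvascular retina. RefSeq promoter windows on build GRCm38.p6, from 250 bases before a gene's start to 50 bases after it, were matched for 4 of the 10 genes (Cd34, Emcn, Prnd and Egfl7) and hold 7 start sites. The first window of each gene is printed 5′ to 3′ on the gene's own strand, with capitals marking CAGGAA or CCGGAA on either strand (read as TTCCTG or TTCCGG on the other), short forms of the site bound by ETS factors, a family active in endothelial cells.
Cd34, chr1:194938571-194938870, plus strand: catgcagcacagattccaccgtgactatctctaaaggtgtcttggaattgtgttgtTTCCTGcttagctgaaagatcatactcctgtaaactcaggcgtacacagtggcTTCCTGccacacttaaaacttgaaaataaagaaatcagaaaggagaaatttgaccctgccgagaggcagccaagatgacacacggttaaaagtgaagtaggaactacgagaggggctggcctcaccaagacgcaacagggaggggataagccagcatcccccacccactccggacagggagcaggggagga
Emcn, chr3:137340828-137341127, plus strand: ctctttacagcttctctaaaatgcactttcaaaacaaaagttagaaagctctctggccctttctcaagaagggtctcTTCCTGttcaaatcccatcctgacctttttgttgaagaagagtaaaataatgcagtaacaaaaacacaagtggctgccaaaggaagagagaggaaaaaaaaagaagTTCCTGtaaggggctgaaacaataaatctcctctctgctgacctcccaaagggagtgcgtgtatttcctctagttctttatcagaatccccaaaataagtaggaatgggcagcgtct
Prnd, chr2:131950611-131950910, plus strand: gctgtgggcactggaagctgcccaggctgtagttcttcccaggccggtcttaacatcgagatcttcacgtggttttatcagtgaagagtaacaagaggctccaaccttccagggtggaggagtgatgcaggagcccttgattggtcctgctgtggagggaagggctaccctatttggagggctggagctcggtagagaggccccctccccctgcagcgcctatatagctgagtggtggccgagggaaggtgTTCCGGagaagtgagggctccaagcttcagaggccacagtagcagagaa
Egfl7, chr2:26580833-26581132, plus strand: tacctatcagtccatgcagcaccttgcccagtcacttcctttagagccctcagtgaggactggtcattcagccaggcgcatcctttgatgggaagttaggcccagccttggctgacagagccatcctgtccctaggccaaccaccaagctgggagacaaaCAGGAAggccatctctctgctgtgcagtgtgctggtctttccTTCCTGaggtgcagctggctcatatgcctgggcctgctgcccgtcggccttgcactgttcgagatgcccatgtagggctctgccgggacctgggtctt
CAGGAA was found in 4 of the 7 windows and in 30.6% of 32851 promoter windows of 300 bases in the same table. CCGGAA was found in 2 of the 7 and in 14.9% of all. Those 2 are the overlapping windows of Prnd and hold the same site, so it is a single site in a single gene. The sites differ in their letters and cannot overlap as the same match. TATAAA, searched on both strands as well, was in none of the 7 windows and in 13.6% of all. A match describes letters and shows no binding.

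Egfl7 is also the host of the microRNA miR-126a, whose mature 3p arm lies within the gene at chr2:26591402-26591423 (GRCm38.p6, plus strand). It is shown because Egfl7 is the member called between tip and stalk, with the seed (bases 2 to 8) in capitals.
mmu-miR-126a-3p: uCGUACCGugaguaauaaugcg
The microRNA itself was not measured by these arrays.

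The values below are log2 ratios of sample over reference, so a ratio of 0 means the same signal as the reference pool and a difference of 1 between groups means a doubling. A probe is called where limma's moderated test, fitted over all probes that passed the filter, gave a Benjamini-Hochberg adjusted p under 0.05. The sample channel had a median net signal of 98.1 to 292 units per array, with 85% to 95.4% of spots well above its background. Over all probes, the correlation between arrays was 0.945 to 0.971 within tip, 0.947 to 0.959 within stalk and 0.912 to 0.953 from tip to stalk. On the day when 12 arrays were scanned, stalk came first, then tip, then nonvascular arrays, so the group and the order of scanning cannot be told apart. Tip replicate 5 was scanned on another day.

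The labels were set against marker lists, which were chosen with earlier results of these data known, so they are no independent check. Of 8 tip cell markers 6 were called higher in tip than in stalk and none lower, led by Esm1, a proteoglycan of the sprouting front, at 2.87 ± 0.16 (log2 difference ± SE). Of 7 ganglion cell markers, 6 were called lower in tip than in nonvascular retina and 5 lower in stalk. Among all tested probes, 1.34% were called higher in tip than in stalk. Against nonvascular retina, 16.2% of all probes were called lower in tip and 18.1% in stalk, and 10.8% and 10.7% higher. Markers of cells around the vessel were higher in the vessel samples too: 11 of 12 pericyte and smooth muscle markers were called higher in tip and 12 of 12 in stalk, and 3 of 5 and 4 of 5 Mueller glia markers. Among astrocyte markers 3 of 6 were called higher in tip and 2 of 6 in stalk, with Pdgfra, the growth factor receptor of retinal astrocytes, at 3.07 ± 0.50 and 2.49 ± 0.54, and among erythroid markers 2 of 3 and 1 of 3. The part of these cells in the members' differences from nonvascular retina was not tested.

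All 13 member probes were well above background in the sample channel on 13 of 13 arrays, and above the 95th percentile of the 314 negative control spots, which was 8.9 to 17.4 intensity units per array. Their sample signals span a wide range. Cdh5 probe 2, Pecam1 and both Podxl probes never exceeded 182 units over local background on any array, whereas the other Cdh5 probe reached 11200 units in tip. Cd34 and Cd93 probe 1 were saturated in red on tip replicate 1 at 65200 units. Signals of different probes depend on the probe as well as on the RNA and are not ranked against each other here.

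**Figure D1:**
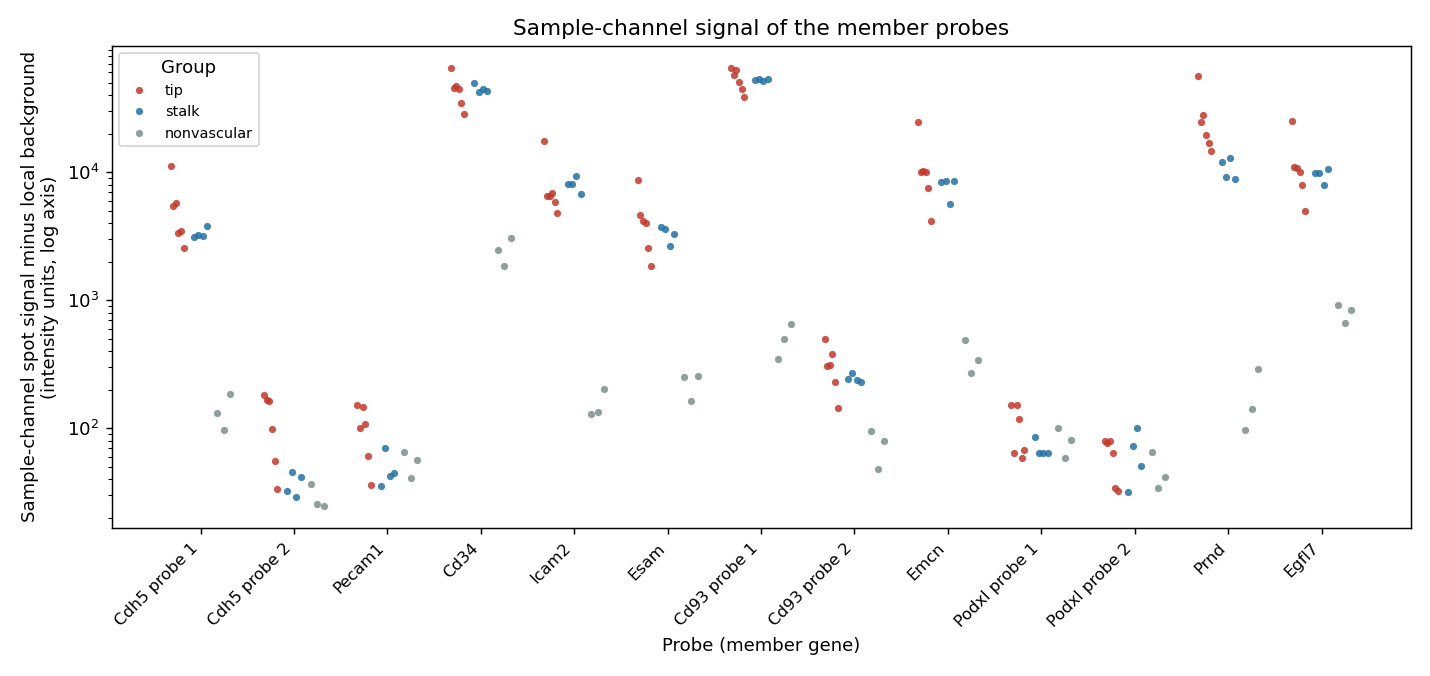
Sample-channel signal minus local background (intensity units, log axis) of each member probe, 1 point per array, coloured by group (tip n = 6, stalk n = 4, nonvascular n = 3). For 8 of the 13 probes every vessel array lies far above every nonvascular array, and Cdh5 probe 2, Pecam1 and the Podxl probes stay at 182 units or less in all groups.

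Against nonvascular retina, members were higher in tip and in stalk. In tip, 11 of 13 probes were called higher and 0 lower, where 10.8% of all tested probes were called higher and 16.2% lower, 26.9% in either direction. In stalk, 9 of 13 were called higher and 0 lower, against 10.7% higher, 18.1% lower and 28.8% in either direction among all probes. Groups did not overlap for 11 of 13 probes in both comparisons, and for 26.9% and 36.7% of all probes. The median difference over the 13 probes was 3.02 in tip and 3.38 in stalk, and over all probes it was −0.0054 and −1e-04. Both comparisons share the nonvascular arrays. In these bulk samples a higher share of endothelial cells and more RNA per cell cannot be told apart.

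**Figure D2:**
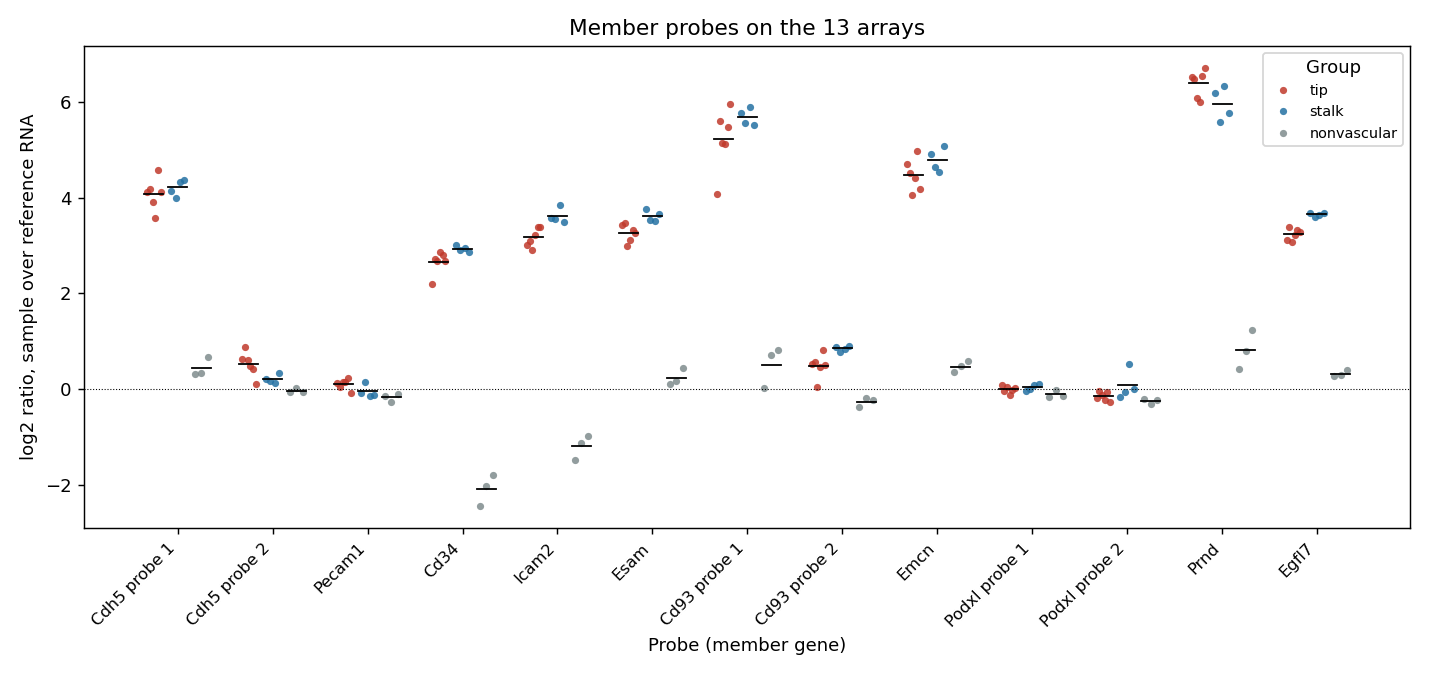
Log2 ratio of sample over reference for each member probe, 1 point per array, with a bar at the group mean (tip n = 6, stalk n = 4, nonvascular n = 3). Vessel arrays stand clear of nonvascular arrays for 8 genes, Podxl sits near 0 in all groups, and tip and stalk lie close together throughout.

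Among the junction proteins, Cdh5 probe 1 had log2 ratios of 3.58 to 4.58 in tip (median 4.12). In stalk it was at 4.14, 4.00, 4.33 and 4.37, and in nonvascular retina at 0.32, 0.34 and 0.67. Every vessel array was above every nonvascular array, and tip and stalk overlapped. Means were 4.08 ± 0.33 (SD, n = 6) in tip, 4.21 ± 0.17 (SD, n = 4) in stalk and 0.45 ± 0.20 (SD, n = 3) in nonvascular retina. Cdh5 probe 1 was 12.4-fold higher in tip and 13.6-fold higher in stalk than in nonvascular retina (adjusted p = 1.618e-08 and 2.178e-08).

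Cdh5 probe 2, which starts 660 bases away from probe 1 by the positions in the array files, gave a far smaller contrast. It ranged from 0.11 to 0.89 in tip (median 0.56), was at 0.21, 0.17, 0.14 and 0.35 in stalk and at −0.06, 0.02 and −0.05 in nonvascular retina. Its tip arrays were called higher than nonvascular ones by 0.56 ± 0.12 (adjusted p = 0.00444), and its stalk arrays, all above the nonvascular ones, were not (0.24 ± 0.13, adjusted p = 0.215). Its reference signal was above background on 7 of 13 arrays. Its sample signal was 33.4 to 182 units in tip, 28.8 to 45.9 in stalk and 24.7 to 36.9 in nonvascular retina. Over the alternatives the tip difference of probe 2 from nonvascular retina ran from 0.48 to 1.88. The stalk difference of probe 2 was called with the scanner software's own log ratio (1.35, adjusted p = 0.0173), with median centring (0.69, adjusted p = 0.00866) and, at the same size, when stalk and nonvascular arrays were fitted alone (0.24, adjusted p = 0.0298).

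Esam, a tight junction protein also found on platelets, ranged from 2.98 to 3.48 in tip (median 3.29). It was at 3.77, 3.53, 3.51 and 3.66 in stalk and at 0.10, 0.17 and 0.44 in nonvascular retina. All 4 stalk arrays were above all 6 tip arrays. Esam was 8.13-fold higher in tip and 10.4-fold higher in stalk than in nonvascular retina, both called.

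Icam2, which is present on resting endothelium and binds a leukocyte integrin, ranged from 2.91 to 3.39 in tip (median 3.16). Its ratios were 3.57, 3.54, 3.84 and 3.48 in stalk and −1.47, −1.11 and −0.98 in nonvascular retina. Here too the lowest stalk array was above the highest tip array. The difference from nonvascular retina was 4.35 ± 0.13 in tip and 4.80 ± 0.14 in stalk, 20.4-fold and 27.8-fold, both called.

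Pecam1 (CD31), the usual antibody marker of vessels, showed small differences on this array. Its probe was at −0.07 to 0.23 in tip (median 0.15), at −0.08, 0.15, −0.13 and −0.11 in stalk and at −0.14, −0.26 and −0.09 in nonvascular retina. It was called higher in tip than in nonvascular retina by 0.27 ± 0.08 (1.21-fold, adjusted p = 0.0187), a call that was lost without nonvascular replicate 2 (0.23, adjusted p = 0.103). Stalk differed from nonvascular retina by 0.12 ± 0.08 (adjusted p = 0.336, 95% interval −0.06 to 0.30). Both differences grew with the processing: to 0.85 in tip and 0.37 in stalk (adjusted p = 0.0121 and 0.267) with the scanner software's log ratio, and to 0.56 and 0.41 with median centring, where stalk was called too (adjusted p = 0.0152). Its sample signal was 36.3 to 151 units in tip, 35.6 to 70.6 in stalk and 41.2 to 65.2 in nonvascular retina, and the probe's positions in the array files span 1854 bases, where 11 of the other 12 member probes span 60.

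Among the sialomucins, Cd34, also a marker of blood progenitor cells, was far higher in both vessel groups. It ranged from 2.19 to 2.86 in tip (median 2.70), was at 3.01, 2.91, 2.96 and 2.86 in stalk, and at −2.43, −2.02 and −1.79 in nonvascular retina. Nonvascular retina thus lay below the reference pool and all vessel arrays above it. The difference was 4.73 ± 0.15 in tip (26.6-fold, adjusted p = 6.084e-10) and 5.01 ± 0.16 in stalk (32.3-fold, adjusted p = 5.611e-10).

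Emcn (endomucin), a sialomucin of capillaries and veins, ranged from 4.06 to 4.98 in tip (median 4.45). It was at 4.90, 4.64, 4.53 and 5.08 in stalk and at 0.36, 0.48 and 0.59 in nonvascular retina. Tip and stalk overlapped, and both stood above nonvascular retina by 15.9-fold and 19.8-fold (both called).

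Podxl (podocalyxin), the sialomucin closest to Cd34 in its family, was not called in either vessel group. Probe 1 lay between −0.15 and 0.11 on all 13 arrays, and probe 2, which starts 2538 bases away, between −0.30 and 0.54, the highest being stalk replicate 3. Neither was called against nonvascular retina: in tip the differences were 0.09 ± 0.06 and 0.09 ± 0.12 (adjusted p = 0.262 and 0.644), with 95% intervals of −0.03 to 0.21 and −0.17 to 0.36. In stalk they were 0.14 ± 0.06 and 0.32 ± 0.13 (adjusted p = 0.104 and 0.0907), and both were called there with median centring (0.37 and 0.72). Probe 2 was also called in stalk in the red channel alone (0.64, adjusted p = 0.0374) and without stalk replicate 1 (0.40, adjusted p = 0.0392), and lay at 0.17 (adjusted p = 0.121) without stalk replicate 3, its highest array. The mean of both Podxl probes was called in stalk as well (0.23, adjusted p = 0.0457 by limma). Over the alternatives the stalk difference of probe 2 reached 1.15. Sample signals of the Podxl probes were 32 to 153 units on all arrays.

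A list of the CD34 family with its ligands and adaptors holds these 3 members. Of its 12 measured genes, 5 were called higher and 1 lower in tip than in nonvascular retina. Over all probes the shares were 10.8% higher and 16.2% lower. Beside Cd34 and Emcn, the higher genes in tip were Ezr, Msn and Rdx, which tie membrane proteins to actin (1.78, 0.98 and 0.51). The lower gene was Podxl2, the third CD34 family member, at −1.04 ± 0.12 in tip and −1.21 ± 0.13 in stalk. The list's median was 0.19 in tip and 0.11 in stalk. Slc9a3r2, an adaptor that binds podocalyxin, was called lower in tip than in stalk (−0.98 ± 0.13, adjusted p = 0.00171), and the other 11 genes were not called there. Of all probes 1.15% were called lower in tip than in stalk. Without tip replicate 6 or without stalk replicate 4, 1 gene of the list was called higher in tip.

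Cd93 probe 1 ranged from 4.08 to 5.96 in tip (median 5.30). It was at 5.76, 5.56, 5.89 and 5.51 in stalk and at 0.02, 0.72 and 0.81 in nonvascular retina. Its lowest tip array was replicate 1, where the spot was saturated. Cd93 probe 1 was 26.1-fold higher in tip and 35.8-fold higher in stalk than in nonvascular retina, both called. Over the alternatives the difference ran from 2.73 to 7.13 in tip and from 3.14 to 7.05 in stalk.

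Cd93 probe 2, which starts 4516 bases from probe 1, gave the same direction at a smaller size. It ranged from 0.06 to 0.82 in tip (median 0.52), was at 0.89, 0.78, 0.85 and 0.90 in stalk and at −0.36, −0.19 and −0.22 in nonvascular retina. Differences from nonvascular retina were 0.75 ± 0.12 in tip and 1.11 ± 0.13 in stalk, both called. Tip overlapped stalk by a single array, replicate 5, which reached 0.82 against a lowest stalk value of 0.78.

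Prnd, which has been described in brain endothelium around birth, was far higher in both vessel groups. It ranged from 5.99 to 6.70 in tip (median 6.50), was at 6.18, 5.58, 6.32 and 5.75 in stalk and at 0.42, 0.81 and 1.24 in nonvascular retina. The difference was 5.56 ± 0.21 in tip (47.1-fold, adjusted p = 3.297e-09) and 5.14 ± 0.23 in stalk (35.2-fold, called). Its reference signal was low, 41.4 to 106 units and above background on 12 of 13 arrays. Its sample signal alone was 14500 to 56000 units in tip, 8770 to 13000 in stalk and 96.6 to 288 in nonvascular retina. The other prion family genes went the other way: Prnp was called lower in tip than in nonvascular retina (−0.52 ± 0.12), and so was Sprn (−1.02 ± 0.07).

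Egfl7, a regulator of how vessels form a lumen, ranged from 3.08 to 3.39 in tip (median 3.26). It was at 3.69, 3.60, 3.63 and 3.68 in stalk and at 0.27, 0.31 and 0.41 in nonvascular retina. The 3 groups did not overlap, with stalk highest, then tip. Egfl7 was 7.51-fold higher in tip and 9.96-fold higher in stalk than in nonvascular retina (adjusted p = 7.316e-11 and 1.155e-10). A list of Egfl7 and its neighbours in function has 10 genes and holds Egfl7 and Cd93. Of these, 7 were called higher and 0 lower in tip than in nonvascular retina, against 10.8% and 16.2% of all probes. Mmrn2, the matrix ligand of Cd93, was 16.8-fold higher in tip and 21.2-fold in stalk, and Notch4, an endothelial Notch receptor, differed by 1.89 and 1.68 (log2). Clec14a, a lectin-like relative of Cd93, was not called in either (0.15 and 0.19, adjusted p = 0.324 and 0.206).

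**Figure D3:**
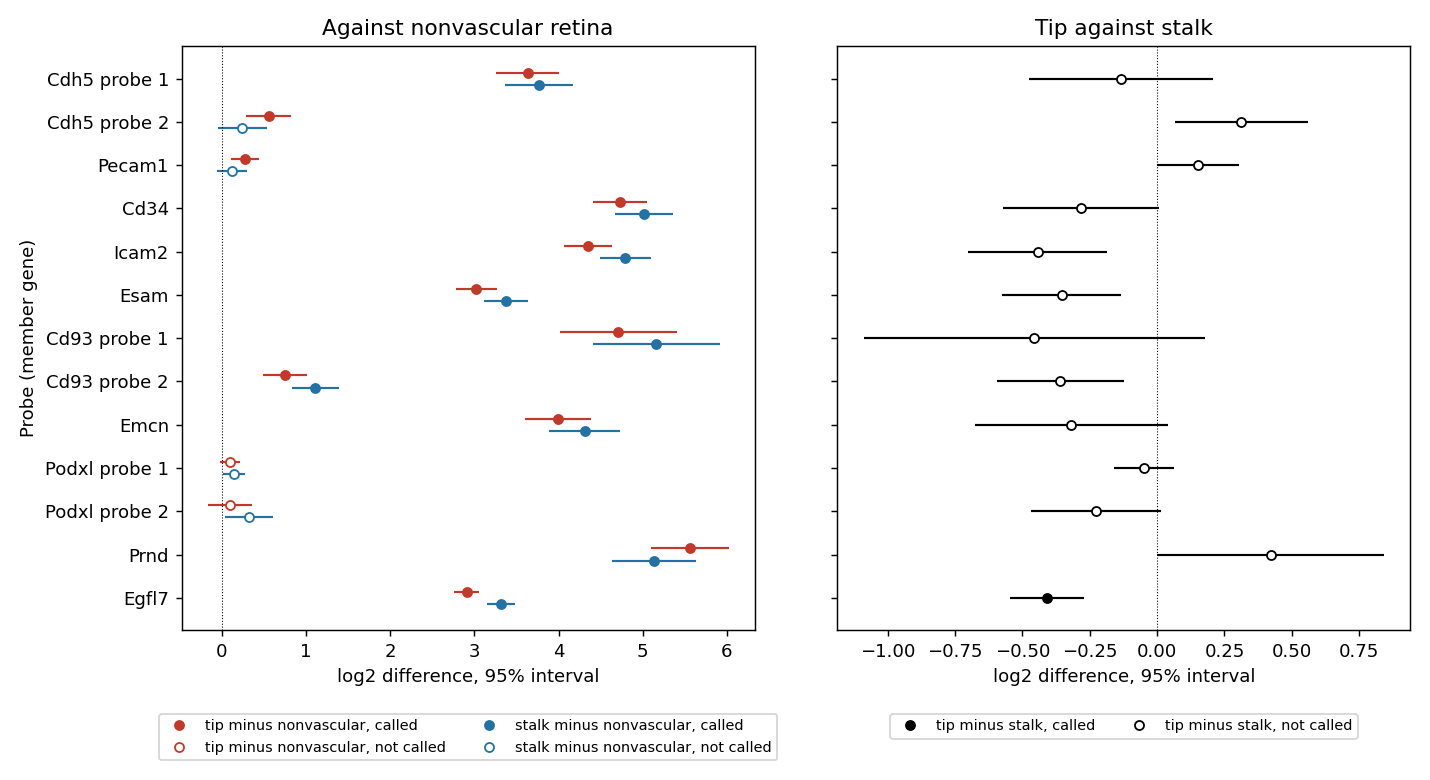
Log2 differences between groups for each member probe with their 95% intervals from limma (filled, adjusted p under 0.05; open, not called). Left, tip (n = 6) and stalk (n = 4) against nonvascular retina (n = 3): 11 and 9 of 13 probes are called. Right, tip against stalk on a narrower axis: Egfl7 is called, at −0.41, and 10 of 13 probes lie below 0.

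Between tip and stalk, members differed little. Egfl7 was the member called, 1.33-fold lower in tip (−0.41 ± 0.06, adjusted p = 0.00517), with all 6 tip arrays below all 4 stalk arrays. Thus 1 of 13 probes was called lower and 0 higher, where 1.15% of all probes were called lower, 1.34% higher and 2.49% in either direction. At an unadjusted p under 0.05, 5 of the 13 probes passed, and 17.5% of all probes. Groups did not overlap for 3 of 13 probes (Egfl7, Icam2 and Esam), as against 5.22% of all probes. The difference was below 0 for 10 of 13 probes, with a median of −0.28, where the median over all probes was 0.0054.

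The Egfl7 call depends on how arrays are scaled and how the spread is modelled. It was lost with array brightness in the model (−0.32, adjusted p = 0.0582), by median centring (−0.46, adjusted p = 0.147), by limma on the red signal without the reference (−0.17, adjusted p = 0.534) and under limma's trend and robust settings (−0.41, adjusted p = 0.0744). Its direction was the same in all 28 alternatives. Some of these change only the probe filter, the model of spread or the nonvascular arrays, and cannot move a tip minus stalk difference. Without tip replicate 5, scanned on another day, the Egfl7 difference was −0.43 (adjusted p = 0.00733). Of all probes called between tip and stalk, 53.8% were higher in tip, whereas with median centring it was 22.1%, in the red channel alone 30.8% and with array brightness in the model 34.4%.

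Other members lower in tip missed the threshold. Icam2 differed by −0.44 ± 0.12 (adjusted p = 0.0738) and was called without tip replicate 6 (−0.49, adjusted p = 0.0417). Esam differed by −0.35 ± 0.10 (adjusted p = 0.0919). Both had non-overlapping groups, and all 28 alternatives gave the same sign, though some of these cannot move a tip minus stalk difference. Cd93 probe 1 differed by −0.46 ± 0.29 (adjusted p = 0.459) and probe 2 by −0.36 ± 0.11 (adjusted p = 0.11). Without tip replicate 1, where probe 1 was saturated, its difference was −0.23 (adjusted p = 0.607), and probe 2 was called without tip replicate 5 (−0.42, adjusted p = 0.0462). Cd34, saturated on the same array, differed by −0.28 ± 0.13 (adjusted p = 0.301) and by −0.19 without that array (adjusted p = 0.39). Emcn differed by −0.32 ± 0.16 (adjusted p = 0.347) and turned to 0.04 in the red channel alone.

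Probes that were not lower in tip were Prnd, Pecam1 and Cdh5 probe 2. Prnd was 0.42 ± 0.19 higher in tip (adjusted p = 0.288, 95% interval −0.0017 to 0.84). Its value turned on the processing: it was called higher in the red channel alone (0.89, adjusted p = 0.0341) and lay at −0.33 (adjusted p = 0.647) with the scanner software's log ratio. Pecam1 differed by 0.15 ± 0.07 (adjusted p = 0.291). Cdh5 probe 2 differed by 0.31 ± 0.11 (adjusted p = 0.177) and was called without tip replicate 6 (0.40, adjusted p = 0.0234). Cdh5 probe 1 differed by −0.13 ± 0.16 (adjusted p = 0.717). It turned to 0.13 in the red channel alone and to 0.07 with array brightness in the model. The mean of both Cdh5 probes differed by 0.09. The Podxl probes differed by −0.05 ± 0.05 and −0.23 ± 0.11 (adjusted p = 0.683 and 0.317), and probe 2 by −0.08 without stalk replicate 3.

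**Figure D4:**
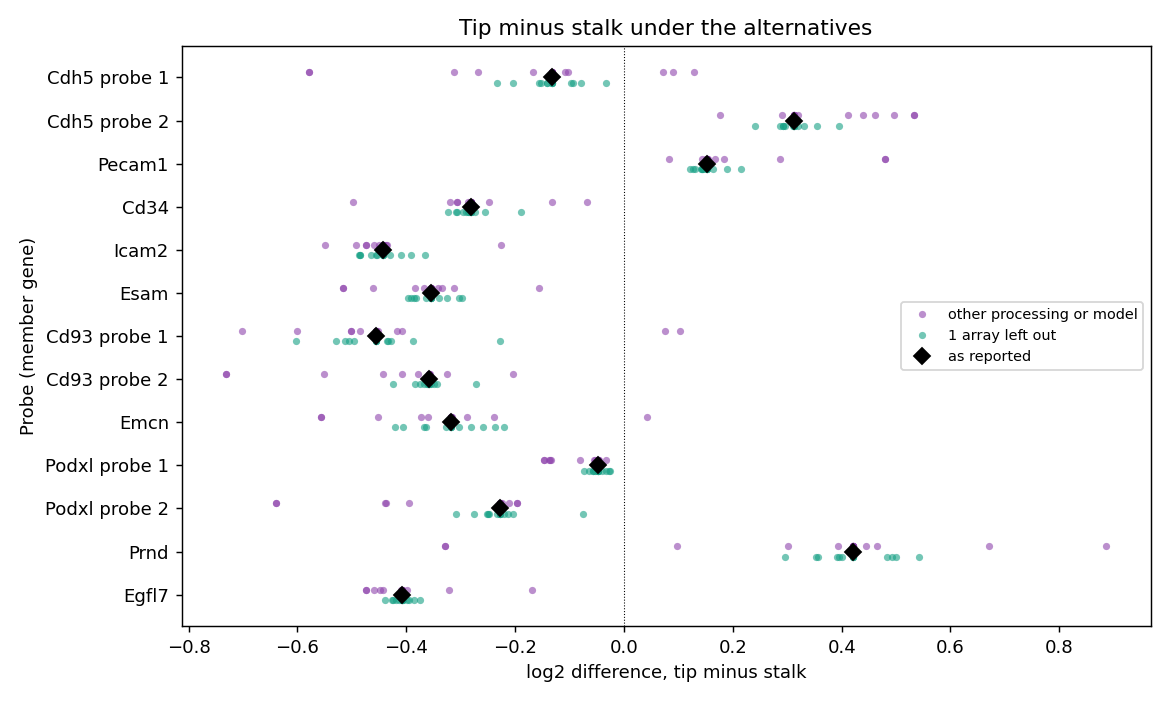
Tip minus stalk (log2 difference) of each member probe as reported (diamond), under other processing or models (purple) and with 1 array left out (green). Egfl7, Icam2, Esam, Cd34, Cd93 probe 2 and the Podxl probes stay below 0 throughout. Cdh5 probe 2 and Pecam1 stay above 0, and Prnd runs from −0.33 to 0.89.

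Whether members differed from one another between tip and stalk was tested on each array's difference of log2 ratios, with an exact two-sided permutation test over the 210 splits of the 6 tip and 4 stalk arrays. The smallest p that this design allows is 0.0095. For the 2 probes of a gene, tip minus stalk differed by −0.44 for Cdh5 (p = 0.105, adjusted p = 0.314), −0.10 for Cd93 (p = 0.933, adjusted p = 0.933) and 0.18 for Podxl (p = 0.248, adjusted p = 0.371, exact test). Among 45 pairs of members, each by its brighter probe, a single pair at the smallest possible p could not have passed the adjustment. Of these pairs 0 passed (exact permutation test), which does not show that members moved alike. In 14 the unadjusted p was under 0.05, and the smallest adjusted p was 0.0612. Prnd was in 4 of the 7 pairs at that smallest value, against Icam2, Esam, Cd93 and Egfl7: Icam2 minus Prnd, for example, gave a tip minus stalk difference of −0.86 on the log2 scale. These 4 differences from Prnd shrank to between −0.19 and −0.14 with the scanner software's log ratio, where Prnd itself lay at −0.33 (adjusted p = 0.648) in tip minus stalk. Over the 28 alternatives, some of which cannot move these values, the Icam2 difference ran from −1.34 to −0.14, and all 4 were below 0 in each. The comparison of member pairs was added after the data were seen.

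Across the 13 arrays the members varied together, apart from Pecam1 and Podxl. The Pearson correlation of a member with the mean of the other members was 0.981 to 0.997 for 8 genes, 0.562 for Pecam1 and 0.601 for Podxl. These are descriptions over 13 arrays that share the reference RNA, and most of the spread is the gap between vessel and nonvascular arrays. The genes outside the members whose pattern was most like their mean were Sox7 (r = 0.998), Robo4 (0.997), Sox18 (0.996), Ecscr (0.996), Arap3 (0.995), Cavin3 (0.994), Mmrn2 (0.993) and Vwa1 (0.993), ranked over the genes with a symbol. Sox7 and Sox18 are transcription factors of endothelial cells and Robo4 is an endothelial receptor of the roundabout family. Between tip and stalk the 8 differed by −0.34 to 0.08 and none was called.

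Other genes of the endothelial surface, junctions and signalling, from a list of 39 of which 37 were measured, followed the members against nonvascular retina. In tip, 29 of 37 were called higher and 1 lower, and in stalk 29 higher and 0 lower, each gene by its brightest probe, with medians of 1.45 and 1.84. Robo4 was 8.88-fold and 11.2-fold higher, Mcam, an adhesion molecule shared with pericytes, 11.4-fold in tip, and Thbd, the thrombin receptor of the vessel wall, 13.5-fold and 23.2-fold. The gene called lower in tip was Flt4, a lymphatic VEGF receptor that is also found at the sprouting front (−0.15 ± 0.05), and none was called lower in 12 of the 28 alternatives. The list's counts stand beside the background of 10.8% and 10.7% of all probes called higher.

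Between tip and stalk, 1.15% of all probes were called lower in tip and 1.34% higher. In this list 8 of the 37 genes were called lower and 1 higher, with a median of −0.23. The 4 with the smallest p were Sox17, a transcription factor of arteries (−1.44 ± 0.12, adjusted p = 5.423e-05), Ly6c1, a surface antigen (−1.15 ± 0.12), Ptprb, the phosphatase that acts on Cdh5 and Tek (−1.52 ± 0.16), and the ETS factor Fli1 (−1.14 ± 0.13). Cldn5, the tight junction claudin, Jam2, Thbd and Palmd were the other 4. Vwf, the clotting factor stored by endothelial cells, was the higher one (1.00 ± 0.23, adjusted p = 0.0454), and no gene of the list was called higher in 17 of the 28 alternatives. The VEGF receptor Kdr differed by −0.66 ± 0.21 (adjusted p = 0.125) and was called at the same size without nonvascular replicate 3 (adjusted p = 0.00445) and with tip and stalk fitted alone (adjusted p = 0.00917). The angiopoietin receptor Tek differed by −0.26 ± 0.11 (adjusted p = 0.249) and Tie1 by 0.10 ± 0.19 (adjusted p = 0.822).

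The junction partners of Cdh5 went both ways. Of 9 measured genes, Cdh5 included, 4 were called higher and 1 lower in tip than in nonvascular retina, and 3 higher and 1 lower in stalk. The shares over all probes were 10.8% higher and 16.2% lower in tip, and 10.7% and 18.1% in stalk. Ptprb was 7.36-fold higher in tip and 21.1-fold higher in stalk, and Ctnna1, which links cadherins to actin, 4.96-fold and 4.56-fold. Vcl (vinculin), recruited to junctions under tension, was called higher in tip (0.44 ± 0.12, adjusted p = 0.0117) and not in stalk (0.30 ± 0.13, adjusted p = 0.103). Cdh2 (N-cadherin), the cadherin of neurons and of contacts with pericytes, was the lower one (−1.14 ± 0.22 in tip, −1.36 ± 0.24 in stalk). Ctnnb1, the catenin bound to Cdh5, was not called in either (0.26 ± 0.23, adjusted p = 0.462 in tip, and 0.11 ± 0.25 in stalk). Between tip and stalk Ptprb was the gene called, 1 of 9, against 2.49% of all probes.

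Between tip and stalk, 2 of the 10 genes in the list with Egfl7 were called lower in tip, Egfl7 itself and Cd248 (−0.87 ± 0.14, adjusted p = 0.00796), a relative of Cd93 known from pericytes and fibroblasts. Dll4, the Notch ligand of tip cells, was the higher one (0.41 ± 0.07, adjusted p = 0.00789). Of all probes 1.15% were called lower in tip than in stalk and 1.34% higher.

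Markers of other vessel cells moved in the same direction as most members. Where 1.15% of all probes were called lower in tip than in stalk and 1.34% higher, the list of pericyte and smooth muscle markers had more. Of these 12 markers 8 were called lower and 0 higher, with a median of −0.75. The median log2 ratio over these markers was 0.91 to 1.55 on tip arrays, 2.04 to 2.56 on stalk arrays and −0.52 to −0.18 on nonvascular arrays. In each group, each of the 12 was well above background on some array. Pdgfrb, the pericyte growth factor receptor, differed by −0.72 ± 0.15 and Rgs5, a pericyte regulator of G proteins, by −0.98 ± 0.18. Their part in the tip to stalk differences of Egfl7, Icam2 and Esam was not tested.

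Blood cells also carry some members: Pecam1 and Esam are found on platelets, and Cd93 and Pecam1 on myeloid cells. Of 6 platelet markers 1 was called higher in tip than in stalk (Treml1, 0.28 ± 0.06), where 1.34% of all probes were. The list's median log2 ratio on an array was −0.15 to −0.02 in tip, −0.28 to −0.12 in stalk and −0.24 to −0.09 in nonvascular retina. Against nonvascular retina 2 platelet markers were called higher and 1 lower in tip, and 1 higher and 1 lower in stalk: Pf4, a platelet chemokine, was 2.84-fold higher in tip and 3.69-fold higher in stalk, and Gp1bb lower (log2 differences of −0.69 ± 0.09 and −0.51 ± 0.10). The part of platelets in the differences of Pecam1 and Esam was not tested. Against nonvascular retina 10.8% of all probes were called higher in tip and 10.7% in stalk, and 16.2% and 18.1% lower. Of 11 microglia and macrophage markers none was called between tip and stalk, and 7 were lower in tip and 5 lower in stalk than in nonvascular retina. Their median on an array ranged from 0.14 to 0.48 in tip, 0.26 to 0.36 in stalk and 0.78 to 1.098 in nonvascular retina. Astrocyte markers (6), photoreceptor markers (6), ganglion cell markers (7) and erythroid markers (3 tested) had 0 calls between tip and stalk, and of 5 Mueller glia markers Glul was called lower in tip (−0.99 ± 0.13).

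**Figure D5:**
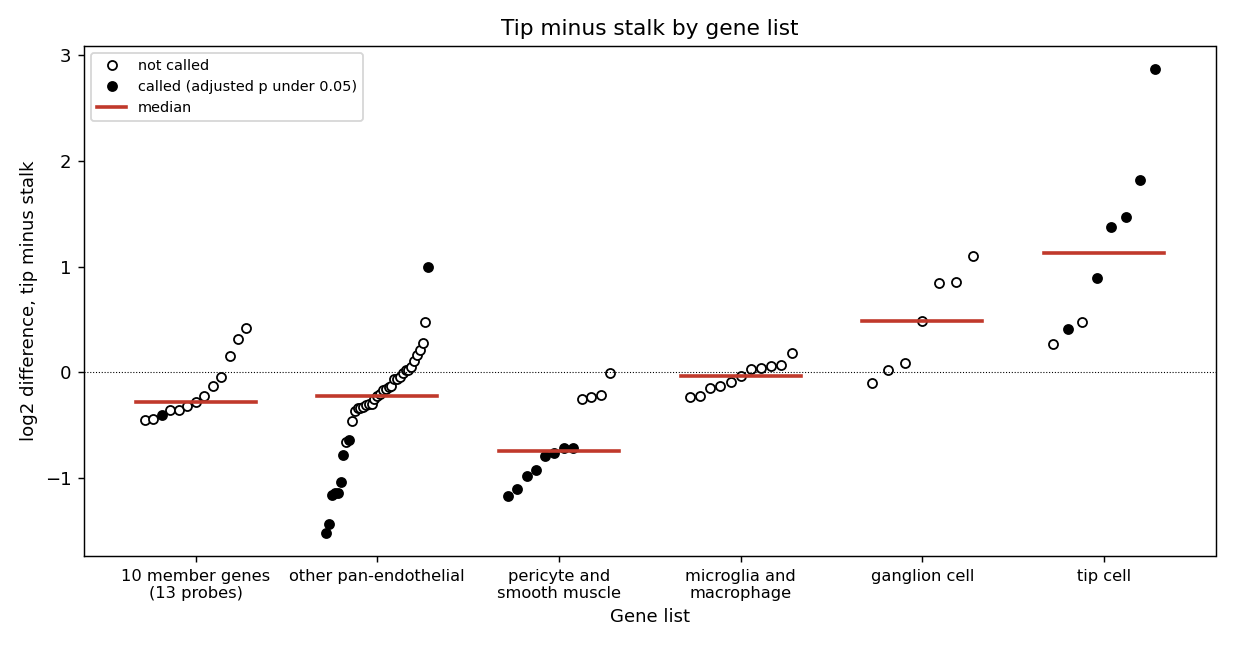
Tip minus stalk (log2 difference) for the 13 member probes and for the genes of 5 lists, each gene by its brightest probe, with the median as a red line (filled, called; open, not called). Member probes lie between −0.46 and 0.42 with 1 called, while pericyte and smooth muscle markers have a median of −0.75 and tip cell markers one of 1.13.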

How the data were processed

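RNA of 13 samples was measured on 2-colour Agilent arrays of 43790 spots, 41534 of them not controls, and each array was on its own slide. Scanning software was Agilent Feature Extraction, version 8.5.1.1, per the submitters' processing notes. The deposited scanner files give each spot's mean pixel intensity and median local background intensity per channel, neither normalized, and a log10 ratio of the processed signals (red over green), as the file headers name them. Linear ratios fill the deposited value table: at least 99.94% of an array's probes equalled the antilog of that log10 ratio within 0.001, and column medians were 1.06 to 1.15. Direction follows the labels, with the sample in Cy5. The files name no genome build, so no probe coordinates are given.

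Background was corrected with normexp (offset 50) and loess was run within arrays (limma 3.58.1, statmod 1.5.0 and, for reading files, the R package data.table, version 1.17.8, all in R 4.3.3). Control spots got weight 0 there and were dropped with the outlier spots. Spots of a probe were averaged, and probes of a gene were kept apart. Probes had to be well above background in red on at least 3 arrays. The 13 arrays entered a single fit of 3 group means (limma's lmFit and eBayes), and p-values were adjusted by Benjamini-Hochberg over the 39354 probes of a comparison. Errors on differences are standard errors. Probes were named through their transcript accession (22072) or the symbol in their description (1213) with RefSeq, and 17889 were unnamed here. Listed genes were taken by their brightest probe. Named genes are all member probes, up to 4 called genes with the smallest p per list and comparison, Kdr, Tek, Tie1 and Esm1, and the 8 genes most like the members; further names from the lists were chosen after their values were seen. Members and lists were chosen with earlier results of these data known. The steps were tested on simulated data, and 28 alternatives were run.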

Additional observations from a re-analysis of the deposited data

Results flagged for a closer look

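Each group of 4 or more arrays was searched for an array that stood apart from the others, 26 groups over the 13 member probes, and chance marks about 1 in 20. It found Cd34 on tip replicate 1, whose log2 ratio of 2.19 lay below the other 5 tip arrays, at 2.67 to 2.86. The Cd34 spot was saturated in red on that array, and whether saturation accounts for the low value was not tested. Without tip replicate 1 the tip minus stalk difference of Cd34 was −0.19 (adjusted p = 0.39 by limma), against −0.28 with it.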

How the results depend on the processing

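Against nonvascular retina the number of member probes called higher was 9 to 11 in tip and 8 to 13 in stalk over the 28 alternatives, with none called lower. Between tip and stalk 1 member was called higher in the red channel alone, and 0 to 1 with 1 array left out; the number called lower was 0 with array brightness in the model, median centring, the red channel alone or the trend and robust settings, and 1 to 2 with 1 array left out. The tip minus stalk sign turned for Cd93 probe 1 (0.1038 with array brightness in the model, 0.0758 in the red channel alone). It also turned for Cdh5 probe 1 (0.0709 and 0.1282 in the same settings), and the mean of both Cdh5 probes was 0.0894. Further turns were those of Emcn (0.0419 in the red channel alone) and Prnd (−0.33 with the scanner software's log ratio and with the deposited ratios). The difference between the Cd93 probes turned to 0.23 with the scanner software's log ratio, and ran from −0.24 to 0.14 with 1 array left out, the latter without tip replicate 1. Tie1 turned between tip and stalk to −0.40 with the scanner software's log ratio and the deposited ratios, −0.0473 with array brightness and −0.0705 with a normexp offset of 10 (chosen after seeing the data), and ran from −0.0033 (without stalk replicate 3) to 0.22 with 1 array left out. Tek turned against nonvascular retina in tip to 0.20 with median centring and 0.17 in the red channel alone. The cause of these changes was not tested.

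Among the other endothelial genes, the number called higher in tip than in stalk was 0 with no background subtraction, the scanner software's log ratio, the deposited ratios, median centring, an offset of 10, the 2 groups alone, array brightness and the replicate block, and 0 to 1 with 1 array left out; the number called lower was 5 with median centring and with array brightness. Their count lower in tip than in nonvascular retina was 0 with the scanner software's log ratio, the deposited ratios, median centring, the red channel alone, an offset of 10, the 2 groups alone and the replicate block, and 0 to 1 with 1 array left out. In the list with Egfl7, 1 gene was called lower in tip than in stalk with median centring, the red channel alone, array brightness or trend and robust settings, and 0 higher with array brightness. In the CD34 family list 2 genes were called lower in stalk than in nonvascular retina with the scanner software's log ratio and the deposited ratios, and 0 to 1 were called higher in tip than in stalk with 1 array left out. In the prion family the red channel alone gave 1 gene higher in tip than in stalk and 1 lower in tip than in nonvascular retina.

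Replicate numbers share no stated source. Deviations of same-numbered arrays correlated at −0.143 to 0.073 over 10 pairs, and 1 of 13 arrays correlated best with its own number. With a replicate block, 416 probes were called higher and 298 lower between tip and stalk, against 527 and 452 without it, and the Pecam1 call in tip against nonvascular retina was lost (0.29, adjusted p = 0.0616). Calls over all probes between tip and stalk moved by over 1.5 times in at least 1 direction with that block, the scanner software's log ratio (349 higher, 404 lower), the deposited ratios (348 and 405), median centring (62 and 218), the red channel alone (242 and 543), array brightness (85 and 162), and without tip replicates 2 (289 and 296), 3 (278 and 321) or 6 (1204 and 627) or stalk replicates 1 (206 and 273) or 3 (212 and 284). Pecam1, both Podxl probes and Cdh5 probe 2 had dim signals, at 182 units or less over background. The part of dim signal in their differences was not tested.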
